A study of Caenorhabditis elegans with 3 samples.

Results

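The nuclear genes of the mitochondrial respiratory chain were examined for binding of the zinc-finger protein PQM-1 by chromatin immunoprecipitation and sequencing (ChIP-seq) of whole first-stage (L1) larvae of Caenorhabditis elegans. The members were all protein-coding genes on the 6 nuclear chromosomes whose Ensembl name on WBcel235 begins with nuo-, ndu, sdh, ucr-, cyc-, cox- or atp-, and they numbered 63 of 19973 protein-coding genes. Of these, 31 belonged to complex I, 4 to complex II, 6 to complex III, 2 to cytochrome c, 15 to complex IV and 5 to the ATP synthase by name. The rule by name also took in 8 cox- genes that encode assembly factors rather than subunits, and it left out chain genes with other names, such as gas-1, mev-1 and isp-1.

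There was 1 group, with 3 biological replicates of strain OP201, which carries the unc-119(tm4063) mutation on chromosome III and the transgene wgIs201, the source of PQM-1 with a GFP-FLAG tag at its C-terminus. The animals were of mixed sex, and no untagged strain or other condition was among the samples. The files held peaks and no read counts, and sequencing depth is therefore unknown. Whole larvae were used, so a peak cannot be placed in a tissue.

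The respiratory chain passes electrons from NADH and succinate through complexes I to IV to oxygen, pumps protons across the inner mitochondrial membrane, and drives the ATP synthase with the proton gradient. Most subunits are encoded in the nucleus, and the mutants gas-1, mev-1, isp-1 and clk-1 have made this pathway a standard subject of ageing research in C. elegans. PQM-1 is a transcription factor known to act opposite the FOXO factor DAF-16 in insulin signalling, and it has been linked to TGATAAG, the DAF-16-associated element, which contains a GATA-factor word.

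Each gene was described by its best promoter peak, which was the peak of highest signal with its summit between 1000 bp upstream and 200 bp downstream of an annotated 5' end. The peaks came from 4 lists of 30000, 1 for each replicate and 1 for the pooled reads, and rank 1 was the strongest peak of its list. These lists include weak and background peaks by design. The authors' stricter list, filtered by the irreproducible discovery rate (IDR), held 682 peaks, which were the 682 highest of the pooled list.

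Sequences under strong pooled peaks of the members are printed because the comparison of GATA words further on rests on such sequences. Each is the 101 bp centred on the summit, on build ce11, read in the direction of the gene. They are sdha-1 (chrX:8546201-8546301, minus strand), nduf-11 (chrII:11345729-11345829, minus strand), nuo-1 (chrII:11097576-11097676, plus strand), ucr-2.1 (chrX:12018017-12018117, plus strand), cox-6B, whose peak is also that of nduc-2 (chrIII:2786168-2786268, plus strand), and ndua-8 (chrIII:2528769-2528869, plus strand). A GATA word here is TGATAA or any of its 3 variants with A as the first base, G as the last base, or both, on either strand. Capitals would mark such a word, and these sequences hold none.
sdha-1: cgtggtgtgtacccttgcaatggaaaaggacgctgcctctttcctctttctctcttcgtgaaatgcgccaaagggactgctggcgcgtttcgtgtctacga
nduf-11: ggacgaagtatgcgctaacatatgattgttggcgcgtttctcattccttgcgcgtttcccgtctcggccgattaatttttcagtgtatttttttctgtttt
nuo-1: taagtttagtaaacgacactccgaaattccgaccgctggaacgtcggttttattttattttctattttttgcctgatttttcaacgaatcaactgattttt
ucr-2.1: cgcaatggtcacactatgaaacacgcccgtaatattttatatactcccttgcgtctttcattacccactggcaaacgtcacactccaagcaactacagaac
cox-6B: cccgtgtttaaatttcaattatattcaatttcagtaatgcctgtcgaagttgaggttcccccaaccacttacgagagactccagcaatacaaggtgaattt
ndua-8: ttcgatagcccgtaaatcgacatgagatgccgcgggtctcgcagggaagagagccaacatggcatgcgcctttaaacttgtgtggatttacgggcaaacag

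A promoter peak of any rank was listed for a larger share of members than of all genes in the pooled list, and an IDR peak for a share near that of all genes. In the pooled list 35 of the 63 members had a promoter peak (55.6%, 95% exact binomial interval 42.5 to 68.1), where 41.9% of all protein-coding genes had one. Among the IDR peaks 1 member had one, cox-5A (1.59%, 95% exact binomial interval 0.0402 to 8.53), where the share of all genes was 2.18%. The 5000 highest pooled peaks served 10 members (15.9%) and 11.5% of all genes. The median best pooled rank was 23926 over the members and 30001 over all genes, with genes lacking a promoter peak set at 30001. The intervals treat genes as independent and cover counting only, and no test of the set was made, since its members were chosen with earlier results of these data known.

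The replicates did not show the same excess. In replicate 1 a promoter peak was listed for 36 members (57.1%) and for 43.3% of all genes. In replicate 2 it was listed for 42 members (66.7%) and for 42.7% of all genes. In replicate 3 it was listed for 22 members (34.9%) and for 35.5% of all genes, so the members stood above the other genes in replicates 1 and 2 and level with them in replicate 3. The members' share exceeded that of all genes by 12.4 percentage points ± 12.3 (SD, n = 3), a mean difference about the size of the spread between replicates.

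The same held among stronger peaks. The top 5000 of replicate 1 served 13 members (20.6%) and 11.9% of all genes, and that of replicate 2 served 12 members (19.05%) and 12.1% of all genes. The top 5000 of replicate 3 served 3 members (4.76%) and 7.24% of all genes. In all, 23 members reached the top 5000 of at least 1 replicate. Of the 63 members 18 did so in 1 replicate only (28.6%, against 16.6% of all genes) and 5 in 2 (7.94%, against 4.94%). No member did so in all 3, where 1.57% of all genes did, and a count of 0 of 63 allows a share of up to 4.76%. The 5 members with 2 replicates were atp-3, cox-5A and ucr-2.1, in replicates 1 and 2, and ndua-8 and nduf-2.2, in replicates 1 and 3.

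**Figure D1:**
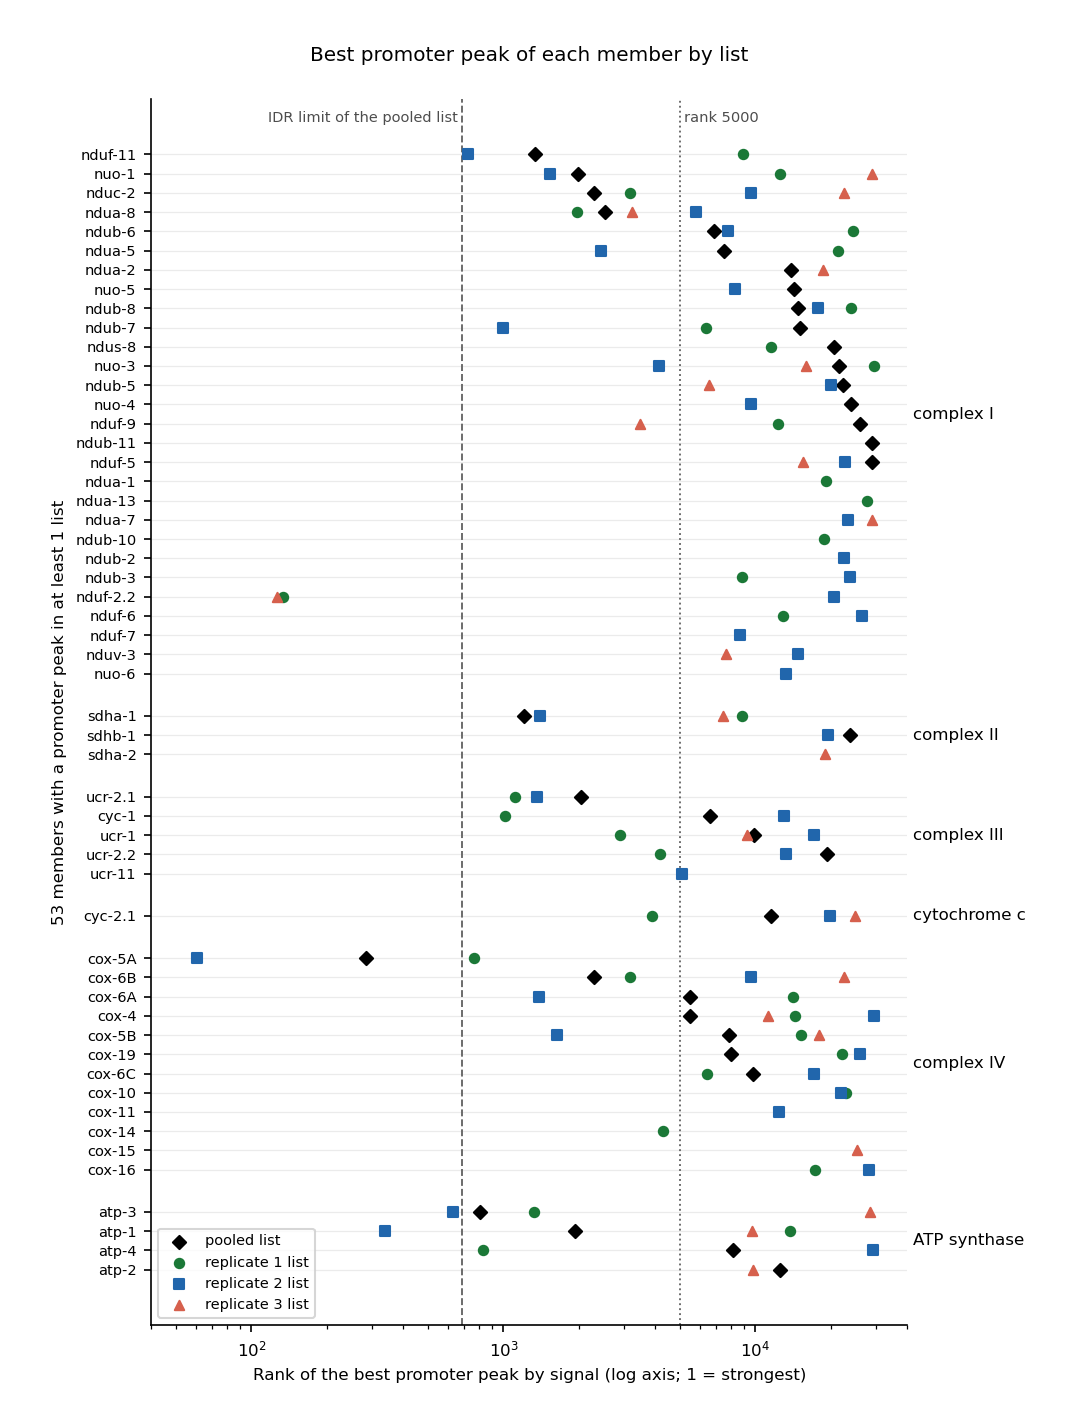
Rank of the best promoter peak (log axis, 1 is the strongest) in the pooled list and in replicates 1, 2 and 3 for the 53 members with a promoter peak in at least 1 list, by complex; a missing symbol means no promoter peak in that list. The pooled symbol of cox-5A alone lies left of the IDR limit at rank 682, and most members' symbols are spread widely along the axis.

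**Figure D2:**
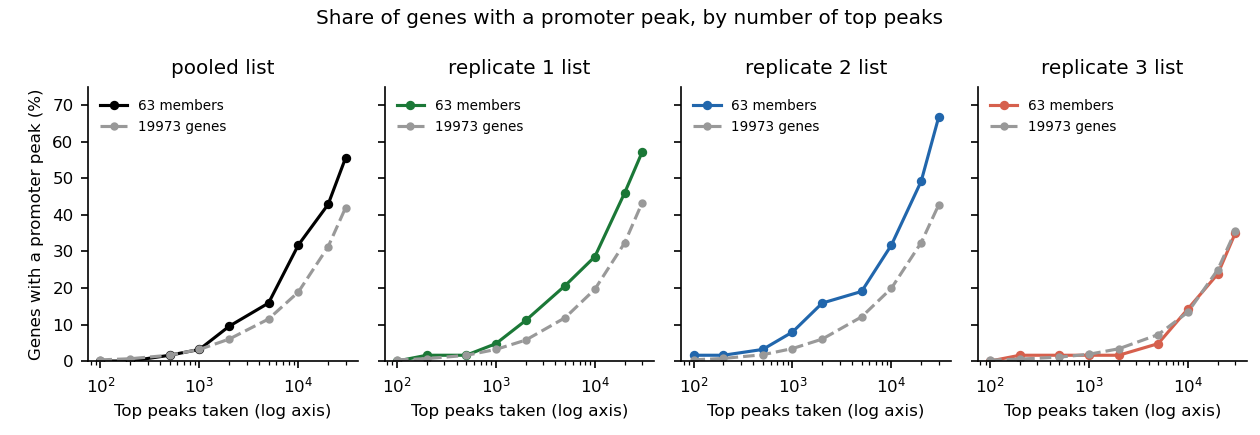
Share of the 63 members (coloured) and of all 19973 protein-coding genes (grey) with a promoter peak among the top peaks of each list, against the number of top peaks taken (log axis). The curves of members lie above those of all genes beyond the top 1000 in the pooled list and in replicates 1 and 2, and the curves run close together in replicate 3.

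Complex IV, cytochrome c oxidase, included cox-5A, which encodes its subunit 5A and had the best member rank in the pooled list and in replicate 2. In replicates 1 and 3 the best member rank was that of nduf-2.2, described further on. The cox-5A peak had a signal of 45.7 in the pooled list, a value from the authors' caller, and ranked 284. It ranked 762 in replicate 1 and 61 in replicate 2, and replicate 3 had no peak within 1500 bp upstream or 500 bp downstream of the gene's 5' end. The summit lay 304 bp upstream and in the window of no other gene, so cox-5A was the one protein-coding gene there. The cox-6B peak, next in the complex, ranked 2289 and lay 16 bp downstream of a later 5' end of that gene, which encodes subunit 6B. That summit was also in the windows of nduc-2 and Y71H2AM.20, so the gene bound is not resolved. In the replicate lists the best peak of cox-6B ranked 3185, 9567 and 22451, and the pooled peak itself was found in replicates 1 and 3 only. The cox-6A peak, 800 bp upstream, ranked 5484, with 14139 in replicate 1, 1380 in replicate 2 and none in replicate 3.

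In the ATP synthase 4 of 5 genes had a pooled promoter peak, and 2 of them, atp-3 and atp-1, were in the top 5000. The atp-3 gene encodes the stalk subunit known as OSCP, and its peak ranked 804 in the pooled list, just beyond the IDR limit. It ranked 1324 in replicate 1, 633 in replicate 2 and 28370 in replicate 3, with its summit 39 bp upstream and also in the window of F27C1.2. The atp-1 peak, at the gene of the alpha subunit, ranked 1929, with its summit 29 bp downstream of the 5' end and also in the window of mcrs-1. Its best replicate ranks were 13729, 340 and 9690, but the peak of replicate 1 was another one, 285 bp upstream. The atp-4 peak ranked 8165 in the pooled list and 826, 29159 and none in replicates 1, 2 and 3, and its summit lay in the body of alh-4. The beta subunit gene atp-2 ranked 12457 in the pooled list and had a promoter peak in replicate 3 only, at 9732. No list held a promoter peak for atp-5.

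Complex I, NADH dehydrogenase, had 17 of 31 genes with a pooled promoter peak and 4 in the top 5000. The nduf-11 peak, with its summit 159 bp upstream, ranked 1335 in the pooled list. Its ranks were 8903 in replicate 1 and 725 in replicate 2, and replicate 3 had no promoter peak there. The nduf-11 gene encodes an accessory subunit of the membrane arm. The nuo-1 gene encodes the subunit that binds NADH and FMN, and its peak ranked 1967, 211 bp upstream. That summit was also in the window of the ribosomal protein gene rpl-36.A, and it was found in every replicate, at 12534, 1534 and 29051. The nduc-2 peak was that of cox-6B, 634 bp upstream of nduc-2. The best ndua-8 peaks ranked 2533 in the pooled list and 1957, 5793 and 3222 in replicates 1, 2 and 3 (mean 3657 ± 1955, SD, n = 3). That mean was the lowest of the 13 members with a promoter peak in every replicate list (20.6%, against 12.4% of all genes). The pooled ndua-8 summit, 244 bp upstream, also lay in the windows of rbc-2 and Y54F10AM.15. The replicates did not share 1 peak, since the summits lay 208 and 301 bp upstream in replicates 1 and 2 and 172 bp downstream in replicate 3. The 4 genes of this complex that lacked a promoter peak in every replicate list were nuo-2, nduv-2, ndua-12 and ndub-11, of which ndub-11 had a pooled one at 28889.

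Complex II, succinate dehydrogenase, had the 1 member peak that was found in every replicate list and lay in the window of no other gene. The sdha-1 gene encodes the flavoprotein subunit, and its peak ranked 1209 in the pooled list and 8836, 1392 and 7400 in replicates 1, 2 and 3 (mean 5876 ± 3949, SD, n = 3). The summits lay 230 bp upstream in the pooled list and 262, 232 and 237 bp upstream in the replicates, and in the window of no other gene. Its paralog sdha-2 had a promoter peak in replicate 3 only, at 18959. The iron-sulphur subunit gene sdhb-1 ranked 23794 in the pooled list, and the anchor subunit gene sdhd-1 had no promoter peak in any list.

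The complex III genes and cyc-2.1 ranked higher in replicate 1 than in the others, apart from ucr-11, with a promoter peak in replicate 2 only, and ucr-2.3, with none. In that replicate 4 of the 6 complex III genes were in the top 5000 (66.7%), against 1 in replicate 2 (16.7%) and 0 in replicate 3. Of all genes 11.9%, 12.1% and 7.24% were in the top 5000 of replicates 1, 2 and 3. The ucr-2.1 peak ranked 2027 in the pooled list, with best replicate ranks of 1114 and 1359 and none in replicate 3, and its summit, 362 bp upstream, was also in the window of nmat-1. The peak of cyc-1, the cytochrome c1 gene, ranked 6571, with 1016 in replicate 1 and 12935 in replicate 2, and that of the core protein gene ucr-1 ranked 9825, with 2897, 17038 and 9277. The ucr-2.2 gene ranked 4185 in replicate 1 and 13175 in replicate 2. Of the cytochrome c genes, cyc-2.1 ranked 11507 in the pooled list, and cyc-2.2 had no promoter peak in any list.

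In the pooled list 28 members had no promoter peak. Of these, 18 had one in a replicate list, namely the structural genes ndua-1, ndua-7, ndua-13, ndub-2, ndub-3, ndub-10, nduf-2.2, nduf-6, nduf-7, nduv-3, nuo-6, sdha-2 and ucr-11 and the assembly factor genes cox-10, cox-11, cox-14, cox-15 and cox-16. The other 10, with none in any of the 4 lists (15.9%, against 26.8% of all genes), were atp-5, cox-7C, cox-17, cox-18, cyc-2.2, ndua-12, nduv-2, nuo-2, sdhd-1 and ucr-2.3. Genes with a promoter peak in a replicate list only were not counted over all genes. The count of 18 is therefore not shown to be particular to the members. Of the 8 assembly factor genes 1, cox-19, had a pooled promoter peak, at rank 8003. Of the 55 other members 34 had one (61.8%), and of all genes 41.9%. In replicates 1 and 2 the contrast was smaller. There 4 of the 8 assembly factor genes were listed in each (50%), against 58.2% and 69.1% of the other members. The shares of all genes were 43.3% and 42.7%. In replicate 3 the list held 1 of the 8 (12.5%), against 38.2% of the other members and 35.5% of all genes. Weak peaks below the last rank are not listed, so members without a listed peak are not shown to be unbound.

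The edge of the promoter window decided how 2 strong peaks were counted. Inside it, the members farthest from their 5' end were nuo-4, at 989 bp upstream, and ndus-8, at 173 bp downstream. Outside it, 6 members had a pooled peak of the top 5000 between the window and 1500 bp upstream, namely nduf-2.2, cyc-2.1, ndua-7, ndua-5, cox-17 and cox-6A, and for 5 of these the nearest 5' end was that of another gene. The share of all genes with such a peak was not taken, so the count is not shown to be unusual. The nduf-2.2 gene encodes a complex I subunit. Its neighbouring peak (III, 6464056 to 6464345) ranked 94 in the pooled list and 133, 146 and 126 in replicates 1, 2 and 3. The pooled summit lay 1021 bp upstream of nduf-2.2 and 422 bp from the 5' end of dlc-1, a dynein light chain gene that is transcribed the other way. In replicates 1 and 3 the summit fell just inside the window, and in replicate 2 it fell outside, which is why the best promoter peak of nduf-2.2 was 133 and 126 in those lists and 20509 in replicate 2. The peak near cyc-2.1 (IV, 4749923 to 4750212) ranked 80 in the pooled list and 70, 142 and 1445 in replicates 1, 2 and 3, at 1056 bp from cyc-2.1 and 172 bp from Y17G9B.5. These peaks were picked for description once their ranks were known. With a window of 1500 bp upstream to 500 bp downstream the members' IDR share was above that of all genes, at 4.76% against 2.64%. The summit regions, shown because the first holds a GATA word and the second does not, are at chrIII:6464151-6464251 (plus strand) and chrIV:4750018-4750118 (minus strand), with the word in capitals.
nduf-2.2: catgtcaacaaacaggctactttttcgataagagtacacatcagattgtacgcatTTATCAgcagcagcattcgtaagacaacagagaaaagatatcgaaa
cyc-2.1: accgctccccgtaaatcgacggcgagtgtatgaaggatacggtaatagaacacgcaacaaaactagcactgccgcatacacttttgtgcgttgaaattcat

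**Figure D3:**
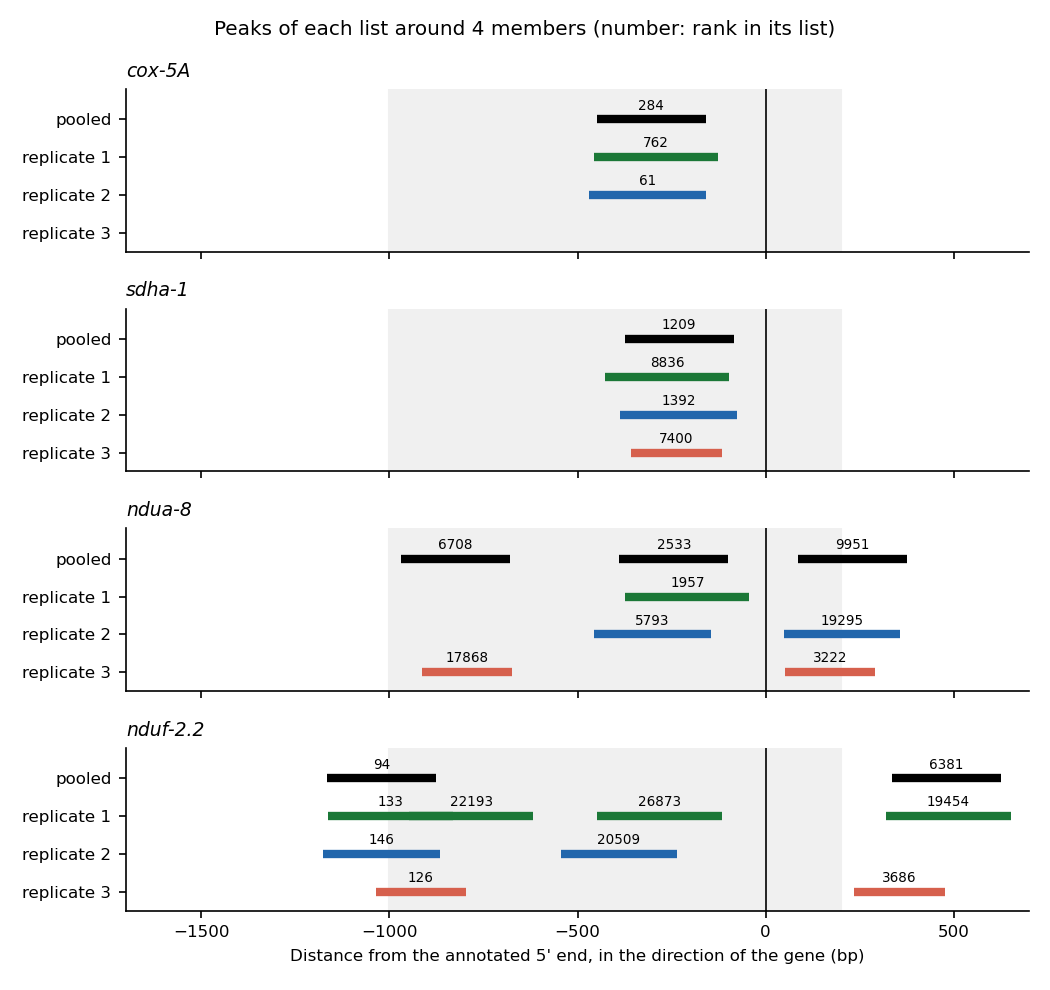
Peaks of the pooled list and of replicates 1, 2 and 3 around cox-5A, sdha-1, ndua-8 and nduf-2.2, drawn to scale by distance from the annotated 5' end (bp, upstream to the left); the shaded band is the promoter window and the number is the rank in that list. The sdha-1 peaks of all 4 lists coincide, cox-5A has none in replicate 3, and the strong nduf-2.2 peaks straddle the far edge of the window.

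The members' peaks carried few GATA words. A GATA word lay within 50 bp of the best pooled summit in 3 of 35 members (8.57%, 95% exact binomial interval 1.80 to 23.1) and in 28.3% of the 8377 genes with a pooled promoter peak. The 3 were ndua-2, ucr-2.2 and ndub-11, at ranks of 13792, 19251 and 28889, so each was a weak peak. TGATAA, which is counted among these words, was at 1 member's summit (2.86%, against 18.05% of genes). The full element TGATAAG was at none, where 7.89% of genes had it, and a count of 0 of 35 allows a share of up to 8.57%. All pooled peaks had any of the words at 23.6% of summits, and the 682 IDR peaks at 71.3%.

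Strength and shared promoters were compared in turn. Among the 10 members in the pooled top 5000 none had a GATA word, which allows a share of up to 30%, while 43.8% of the 2296 genes in that range had one. Other lists were also low there, with 0 of 9 mitochondrial and 3 of 32 cytosolic ribosomal protein genes and 1 of 6 proteasome genes. In the genes whose summit lay in the window of at least 1 other gene the share was 24.2%, against 2 of 20 members, and in those with a summit of their own it was 29.6%, against 1 of 15 members. Cytosolic ribosomal protein genes, with any word at 4 of 48 summits (8.33%), and proteasome genes, with 2 of 21 (9.52%), had shares near that of the members. Mitochondrial ribosomal protein genes had 7 of 33 (21.2%). TGATAAG was at none of these 48 cytosolic and 33 mitochondrial ribosomal protein summits and at 1 of the 21 proteasome summits (4.76%). Its absence was thus not particular to the members. In the replicate lists the members' shares were 13.9%, 9.52% and 13.6% in replicates 1, 2 and 3, against 28.1%, 27.9% and 23.7% of genes, and TGATAAG was at no member's summit in any of them. The deficit depended on the distance searched in replicate 1, where within 100 bp 15 of 36 members had a word (41.7%, against 44.8% of genes). Within 100 bp the members' shares in replicates 2 and 3 were 16.7% and 18.2%, against 44.1% and 39.6% of genes.

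**Figure D4:**
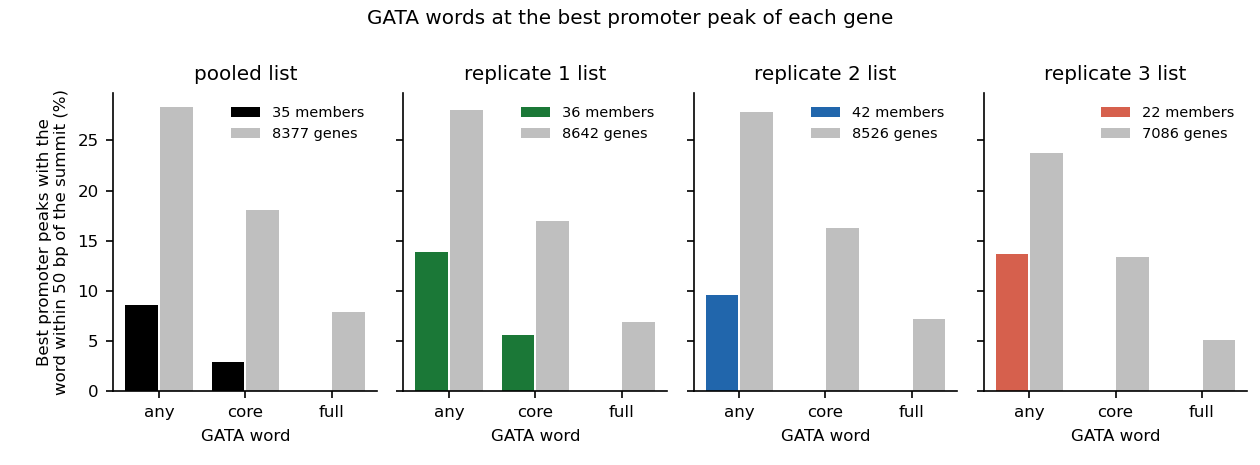
Share of genes whose best promoter peak has a GATA word within 50 bp of the summit in each list, for members (coloured) and all genes with a promoter peak (grey); "any" is any GATA word as defined in the text, "core" is TGATAA and "full" is TGATAAG. The members' bars are below those of all genes in every list, and the full element has no member bar.

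The members' summits were often in the window of another gene. The window itself limits their distance from a 5' end. Of the 35 pooled summits 25 lay upstream of the 5' end (71.4%, against 84.03% of genes) and 10 downstream, and the median position was 244 bp upstream, against 290 bp over all genes. At 20 of the 35 members the summit lay in the window of at least 1 other protein-coding gene, and 15 had a summit of their own (42.9%, against 76.1% of genes with a pooled peak). In the top 5000 the members with a summit of their own were 3 of 10, namely cox-5A, sdha-1 and nduf-11. The share over all genes in the pooled top 5000 was not taken, and the 76.1% covers peaks of any rank. A same-strand gene ended within 500 bp upstream of 20 of the 63 members (31.7%, against 18.1% of all genes), and sdha-1, nduf-11, cyc-1 and atp-4 were among them. Without the genes so placed, 60.5% of members and 42.1% of all genes had a pooled promoter peak.

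The share of members' pooled peaks found in every replicate was near that of all genes. A peak of a replicate counted as the same when it covered at least 50% of the pooled peak. By that rule 3 of the 35 pooled peaks were found in all 3 replicate lists (8.57%, against 11.6% of the 8377 genes), at atp-3, sdha-1 and nuo-1. A further 17 were found in 2 (48.6%, against 35.4% of genes), 14 in 1 (40%, against 43.6%) and 1 in none (2.86%, against 9.35%). Of the 10 members in the pooled top 5000, 3 had no promoter peak in replicate 3, namely cox-5A, nduf-11 and ucr-2.1, and 9 ranked higher in replicate 2 than in replicate 3 or were absent from the latter. The same counts were not taken over all genes in the pooled top 5000. Replicate 3 listed a promoter peak for 35.5% of all genes and replicate 2 for 42.7%. The pattern is therefore not shown to be particular to the members.

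Of 11 further genes grouped here with the chain, not all of them shown to encode its subunits, 7 had a pooled promoter peak (63.6%, against 41.9% of all genes). In the top 5000 were 2 of them, mev-1 and mai-1. In replicates 1, 2 and 3 a promoter peak of any rank was listed for 6, 7 and 1 of the 11 (54.5%, 63.6% and 9.09%). Among members those shares were 57.1%, 66.7% and 34.9%, and among all genes 43.3%, 42.7% and 35.5%. The top 5000 of replicates 1, 2 and 3 held 2, 6 and 0 of the 11 (18.2%, 54.5% and 0%). Among members those shares were 20.6%, 19.05% and 4.76%, and among all genes 11.9%, 12.1% and 7.24%. The peak of mev-1, which encodes the cytochrome b subunit of complex II, ranked 479 and was an IDR peak, with 1052 and 621 in replicates 1 and 2 and none in replicate 3. Its summit, 26 bp upstream, also lay in the windows of jmjd-4 and ced-9. The gene lpd-5, which encodes the complex I subunit known as NDUFS4 in humans, ranked 18209, while gas-1, which encodes a complex I subunit, had no promoter peak in any list. The Rieske protein gene isp-1 had one in replicate 3 only, at 24289. Of 8 ubiquinone synthesis genes 3 had a pooled promoter peak (37.5%), the highest at clk-1, a hydroxylase gene, with 4352 in the pooled list and 2010, 10404 and 20684 in the replicates.

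In the lists of carriers, citric acid cycle, stress and import no gene had an IDR peak. Of the mitochondrial ribosomal protein genes 3 had one (4.29%), and the share of all genes was 2.18%. The first 4 lists are short, with 4, 14, 7 and 8 genes. The upper ends of their exact binomial intervals were 60.2%, 23.2%, 41.0% and 36.9%. A lack of IDR peaks particular to these lists is therefore not shown. A pooled promoter peak was listed for 41.9% of all genes. It was listed for 2 of 4 ADP/ATP carrier genes (50%, highest ant-1.1, rank 1332). Of 14 citric acid cycle genes 8 had a pooled promoter peak (57.1%, highest aco-2, the aconitase gene, 2793). So did 5 of 7 mitochondrial stress genes (71.4%, highest hsp-6, a mitochondrial Hsp70 gene, 2140). A pooled promoter peak was also listed for 5 of 8 import genes (62.5%, highest tomm-20, 1898). Of 70 mitochondrial ribosomal protein genes 33 had one (47.1%), 9 in the top 5000, with mrps-31 highest at 283. Of 20 vacuolar ATPase genes, which encode a proton pump of other membranes, 11 had one (55%), with vha-15 highest at 2092. The cytosolic ribosomal protein genes had one at 48 of 78 (61.5%). They held 32 in the top 5000 (41.0%, against 11.5% of all genes) and 12 IDR peaks, with rpl-3 highest at 55. The proteasome genes had one at 21 of 33 (63.6%), with 6 in the top 5000 and 1 IDR peak, that of rpn-3 at 319. The share of members in the top 5000, 15.9%, was thus nearer to the 12.9% of the mitochondrial ribosomal proteins than to the 41.0% of the cytosolic ones, and the difference between these lists was not tested.

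**Figure D5:**
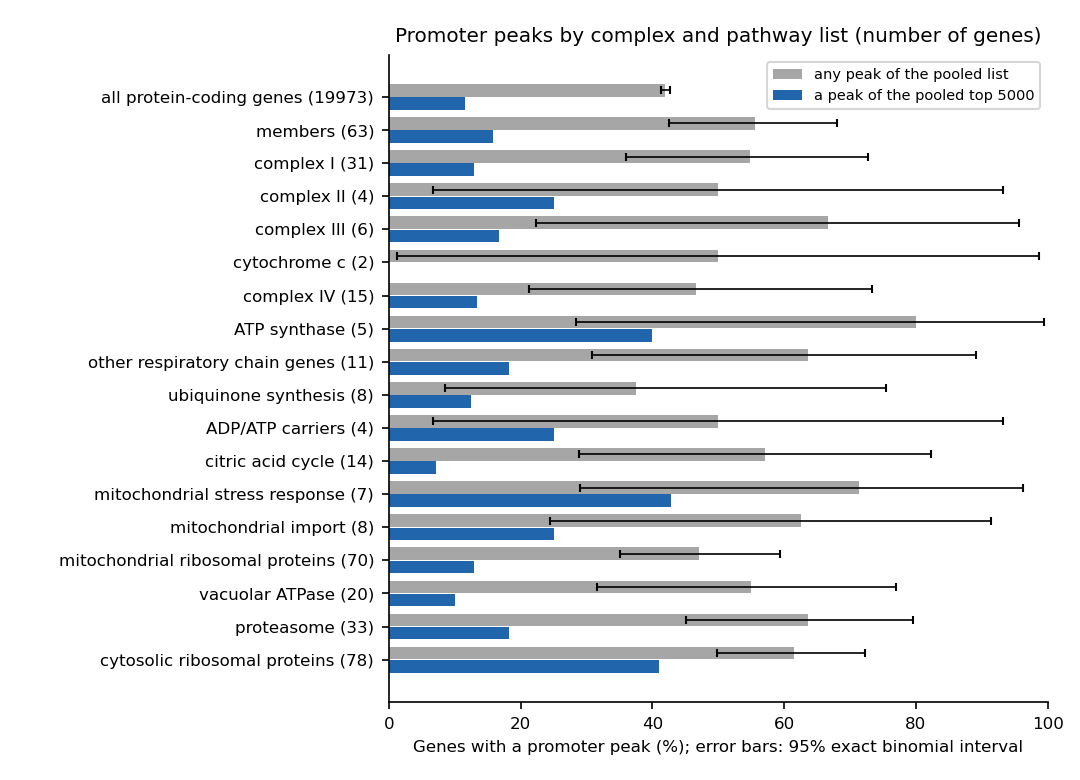
Share of genes with any promoter peak of the pooled list (grey, with the 95% exact binomial interval) and with a peak of the pooled top 5000 (blue), for all genes, the members, each complex and the other lists, with the number of genes in brackets. The intervals of the single complexes are wide, and the blue bar is 15.9% for the members and 41.0% for the cytosolic ribosomal proteins.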

How the data were processed

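ChIP-seq peak lists of 3 replicates of tagged PQM-1 in L1 larvae were analysed on build ce11. Per the deposited README, the authors called relaxed peaks, background included, on each replicate's alignments and on all pooled, against 1 control file, and took the IDR list from them. Which caller, aligner and IDR cutoff they used is not given in the sources used here. The deposited signal (column 7) has a scale that differs between lists, so it was used for ranks within a list. Ties took the better rank and were most frequent in replicate 2, at 7281 of 30000 peaks. The ce10 lists and the control were not used.

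Genes were taken from Ensembl release 115 and sequence from the RefSeq copy of WBcel235, the assembly of ce11. Every peak ended within its reference chromosome. A summit counted for each gene whose window held it. Intervals are 95% exact binomial (Clopper-Pearson), the limit for a count of 0 is 3 divided by the total, and both cover counting only. The members, gene lists, words, windows and rules were chosen with earlier results of these data known. With 1 group there was no contrast between samples and no p-value was taken. Named were the members with an IDR peak, the members in the top 5000 of all replicates, the 3 best of each complex, those with no pooled peak, 5 fixed chain genes and the best of each other list. Further members were named after their values were seen. The assignment of peaks to genes was tested on simulated data. Alternatives were other windows, 5' ends, overlap rules, numbers of top peaks, word widths and gene sets. Tables were handled in pandas 2.3.3 and numpy 2.4.6 under Python 3.11.15, intervals came from SciPy 1.17.1, and plots from matplotlib 3.10.9. The sequence under the cox-5A peak is not reported here.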

Additional observations from a re-analysis of the deposited data

How the results depend on the processing

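Of 78 alternative values, 43 stayed within 1.5 times the reported one (for the median rank, within 4931, the SD of the replicate medians). The 43 include values that were 0 under both settings, where no ratio can be taken. Some of these could not have risen, as with fewer top peaks, a narrower window or a shorter word distance. The tally is therefore not a measure of robustness. The pooled share of members stayed between 46.0% and 69.8% under other windows, 5' ends, overlap rules and gene sets. The lowest value came with the nearest gene alone (37.5% of all genes). The highest came with the window of 1500 bp upstream to 500 bp downstream (55.9% of all genes). Further alternatives were chosen after seeing the data. There the pooled share was 54.0% with each peak counted once (37.1% of all genes). It was 4.76% with only peaks found in all 3 replicates (5.10% of all genes). The IDR share was 4.76% both with the window of 1500 bp upstream to 500 bp downstream and with any overlap of peak and window, since nduf-2.2 and cyc-2.1 then count (2.64% and 2.35% of all genes). The median rank was 30001 with 500 bp upstream, with the nearest gene alone and in replicate 3, 14171 with the wide window, and 8165 over members with a peak (11508 over genes with one). The share in the top 5000 of all 3 replicates, 0%, was 3.17% with the wide window, with any overlap and with the top 10000 (2.32%, 1.81% and 2.95% of all genes). In these 3 alternatives and in both for the IDR share the members passed from below to above all genes. Leaving out a replicate gave 0% to 4.76%, which came without replicate 3 (atp-3, cox-5A and ucr-2.1; 5.10% of all genes) and 3.17% without replicate 2 (ndua-8 and nduf-2.2; 2.28% of all genes). The mean share per replicate, 14.8%, was 4.76%, 9.52% and 24.9% with the top 1000, 2000 and 10000 (2.82%, 5.03% and 17.7% of all genes). The share with a summit of their own was 20.5% with the wide window (66.3% of all genes). The share with any GATA word was 2.86% within 25 bp and 20% within 100 bp (16.3% and 44.5% of genes). It was 13.9% and 13.6% in replicates 1 and 3 (28.1% and 23.7% of genes). For TGATAA it was 0% within 25 bp, 8.57% within 100 bp, 5.56% in replicate 1 and 0% in replicates 2 and 3. Width and replicate were also changed together, after seeing the data. Within 100 bp the shares in replicates 1, 2 and 3 were 41.7%, 16.7% and 18.2% for any word (44.8%, 44.1% and 39.6% of genes), so replicate 1 came near all genes, and 19.4%, 4.76% and 9.09% for TGATAA (27.9%, 26.7% and 22.6% of genes). Within 25 bp they were 8.33%, 9.52% and 9.09% for any word (15.7%, 16.05% and 12.35% of genes) and 5.56%, 0% and 0% for TGATAA (9.57%, 9.45% and 6.90% of genes). The causes were not tested, except where the construction is named. TGATAAG stayed at 0% in every alternative. No paired analysis was possible because all samples belong to 1 group. With read depth unknown, a promoter peak missing from a list is not shown to be absent from the chromatin, and the part of depth in the low shares of replicate 3 was not tested.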
